A study of Homo sapiens with 12 samples.

Results

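The 49 genes described here repair DNA breaks that cut both strands, repair crosslinks between strands through the Fanconi pathway, or signal such damage to the cell cycle. They were taken from a list of gene symbols for homologous recombination, end joining, the Fanconi pathway and the damage checkpoint. That list was drawn up with earlier results of these data known. They are 49 of the 62754 genes in the count table and 49 of the 17115 genes that passed the filter on low counts, so every member was tested. The lowest estimated count of any member in any library was 62, for RAD51B.

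The study concerns topoisomerase I complexes and tolerance of EGFR inhibitors. Its cells were PC9, a line from a human lung adenocarcinoma driven by mutant EGFR, and the drug was erlotinib, which blocks the EGFR kinase. There were 4 groups of 3 libraries. Cells with intact TDP1 were sampled untreated (WT), as drug-tolerant cells (DTC) grown for 7 days with 1 µM erlotinib, and as expanded drug-tolerant cells (DTEC) grown for 28 days at the same 1 µM dose, and the TDP1 knockout line KO2 was sampled untreated (KO). TDP1 removes stalled topoisomerase I from DNA ends. KO2 is a single line, no erlotinib-treated knockout was sampled, and a group's cultures came from a common flask and were then grown independently, so p-values measure the spread between cultures of the same cells.

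Homologous recombination copies lost sequence from an intact sister chromatid. The MRE11, RAD50 and NBN complex and RBBP8 (CtIP) trim the break to single-stranded DNA, and BRCA1, BARD1, PALB2 and BRCA2 act on it in the next step. End joining ligates broken ends directly through the Ku proteins, DNA-PK and ligase IV, and is available outside S phase as well. In the Fanconi pathway a core complex with the ubiquitin ligase FANCL marks FANCD2 and FANCI at a blocked replication fork. Many of these genes are transcribed mainly in cycling cells, under E2F factors.

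Promoter sequence was available for 42 of the 49 members in RefSeq (GRCh38.p14), as windows from 250 bases before to 50 bases after the start of transcription. No entry was used for NBN, WRN, FANCI, RAD54B, XRCC5, RMI2 or PRKDC. The 130 bases before the start are shown for 4 members that fell at 7 days and for the 2 members whose levels were higher at both 7 and 28 days, FANCL and MUS81. They are written 5′ to 3′ on the gene's strand. Capitals mark matches to the E2F-like motif TTCCCGC on either strand (GCGGGAA when it lies on the other strand). All 4 members shown that fell hold this motif. Of the 29 members with a window that fell at 7 days, only 14 held it, so these 4 do not represent that group. RAD54L lies at chr1:46247558-46247687 on the plus strand, BLM at chr15:90717216-90717345 plus, FANCG at chr9:35079943-35080072 minus, BRCA1 at chr17:43125365-43125494 minus, FANCL at chr2:58241326-58241455 minus and MUS81 at chr11:65860303-65860432 plus.
RAD54L: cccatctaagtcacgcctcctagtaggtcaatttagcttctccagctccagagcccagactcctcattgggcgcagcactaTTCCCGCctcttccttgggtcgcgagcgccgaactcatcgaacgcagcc
BLM: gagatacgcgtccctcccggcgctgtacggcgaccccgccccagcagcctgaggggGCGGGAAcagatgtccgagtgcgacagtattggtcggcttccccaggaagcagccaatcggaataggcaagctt
FANCG: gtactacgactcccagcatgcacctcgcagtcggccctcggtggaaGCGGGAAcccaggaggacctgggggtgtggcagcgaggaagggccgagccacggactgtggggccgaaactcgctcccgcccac
BRCA1: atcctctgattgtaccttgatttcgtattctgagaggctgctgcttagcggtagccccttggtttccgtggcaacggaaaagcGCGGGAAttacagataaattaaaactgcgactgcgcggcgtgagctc
FANCL: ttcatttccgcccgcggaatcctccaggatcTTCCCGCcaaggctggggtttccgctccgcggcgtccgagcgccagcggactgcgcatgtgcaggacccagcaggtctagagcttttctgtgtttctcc
MUS81: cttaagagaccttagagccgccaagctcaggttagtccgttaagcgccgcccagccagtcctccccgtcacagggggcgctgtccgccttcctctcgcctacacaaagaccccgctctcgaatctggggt

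The motifs searched on both strands of the 300-base windows were the E2F-like TTCCCGC and TTGGCGC, the cell cycle element TTTGAA (CHR) and the CCAAT box. A TTGGCGC that follows an A also holds the CCAAT box on the other strand. At least 1 of the E2F-like motifs was found for 22 of 42 members (52.38%), against 17.01% of the 11889 tested genes with a window and 10.96% of all 27305 genes with a window. Among tested genes that fell at 7 days the share was 20.97%. Of the 29 members with a window that fell at 7 days, 19 (65.52%) held such a match, and of the other 13 members 3 (23.08%) did, namely FANCL, RAD52 and BRIP1. CHR matches were found for 5 of 42 members (11.9%), against 13.88% of the tested genes, and CCAAT boxes for 50% against 42.62%. The members had 1.4 windows per gene and all genes 1.29. These are matches of letters only, and the motifs were chosen with the expression results known.

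TDP1 was checked first. Its normalised level on the CPM scale (counts per library total after TMM scaling) was 28.1, 25.1 and 25.8 in untreated WT and 10.1, 11.3 and 10.98 in KO, a log2 fold change of −1.29 (SE 0.11, edgeR quasi-likelihood test, adjusted p = 1.3e-05). TDP1 RNA was thus lower in the knockout line and still detected. In DTC it was 15.7, 12.7 and 13.5 CPM, and in DTEC 28.4, 25.4 and 26.1 CPM. Library totals ran from 25572691 to 38373679 estimated counts, and the sample titles and library names mark no batch. The epithelial markers EPCAM, KRT8, KRT18, KRT19 and CDH1 were expressed in every library, and all but CDH1 were called lower in DTC, with KRT8 at 46.5% and KRT18 at 40.4% of the untreated mean. HBB had no count in any library, and PTPRC and CD3E stayed at or below 0.147 CPM. CD14 was low, at 0.0865 to 0.299 CPM in untreated WT and 0.541 to 0.909 in DTC. It was called higher in DTC (log2 fold change 2.07, edgeR quasi-likelihood test, adjusted p = 0.0432) and in no other comparison. The 2 genes known from endothelium, PECAM1 and CDH5, were detected, at 28.97 to 35.2 and 24.6 to 29.4 CPM in untreated WT. PECAM1 moved with the groups, with means of 8.77 CPM in DTC (called lower), 92.1 in DTEC and 48.4 in KO (both called higher), and CDH5 was not called in any comparison. The part of these markers in the repair genes' values was not tested.

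After 7 days of erlotinib the repair genes were mostly lower. With a call at an adjusted p under 0.05 in edgeR's quasi-likelihood test over all 17115 genes, 35 of the 49 members fell, against 33.3% of all genes tested, 3 rose, against 34%, and 11 were not called. The members' median log2 fold change was −0.61, and that of all genes tested was 0.06. At a fold of at least 2, 10 members fell (13.9% of all genes) and 1 rose (22.3%). The 3 DTC libraries lay entirely on one side of the 3 untreated libraries for 38 of the 49 members (68.9% of all genes tested) and for 37 of the 38 called ones (95.5% of all called genes), the exception being CLSPN. The mitochondrial share of the counts was 4.43% to 5.41% in DTC, against 2.504% to 2.77% in untreated WT, 1.82% to 2.38% in DTEC and 2.59% to 2.78% in KO, and its part in these changes was not tested.

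After 28 days, 29 members were lower than in untreated WT (26.3% of all genes), 7 were higher (26%) and 13 were not called (52.3% of all genes were called in either direction, and 67.3% at 7 days). Their median log2 fold change was −0.47, against 0.02 for all genes tested. At a fold of at least 2, 5 members fell (6.7% of all genes) and none rose (13.2%). By DESeq2 and by limma voom the counts in this comparison were also 7 higher and 29 lower, with 9104 and 8900 of 17115 genes called. An unadjusted p under 0.05 was found for 7 higher and 30 lower members, 75.5% of the members against 57.9% of all genes tested.

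The direct comparison of DTEC with DTC gave 24 members higher (28.8% of all genes), 7 lower (26.6%) and 18 not called (55.4% of all genes were called in either direction), with a median log2 fold change of 0.22 against −0.01 for all genes. At a fold of at least 2, PRKDC and RMI2 were higher (8.1% of all genes) and CLSPN lower (14.3%). By calls, 11 members fell at 7 days, were higher at 28 than at 7 days and were still lower than in untreated WT at 28 days: XRCC3, BLM, FANCE, FANCG, FANCD2, FANCI, XRCC4, XRCC5, XRCC6, CHEK1 and MDC1. Another 7 fell at 7 days, rose from there and were not called against untreated WT at 28 days: BRCA1, PALB2, NBN, WRN, PRKDC, ATR and CHEK2. A further 13 were lower at both times with no call between them, and 3, XRCC2, FANCB and CLSPN, were lower at 7 days and lower again at 28 days. RAD50, RAD52 and SLX4 were called in none of the erlotinib comparisons. The 3 contrasts share libraries, so these combinations are descriptions. With only the DTC and DTEC libraries in the fit, 15 members in place of 24 were called higher and 5 in place of 7 lower. Calls over all genes also dropped in that fit, to 7856 of 16539 genes tested in place of 9480 of 17115. The rises of XRCC3, BLM, FANCG, FANCD2 and FANCI, of NBN and ATR, and of RAD51B and TP53BP1 were then not called. Neither were the drops of RBBP8 and FANCB.

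**Figure D1:**
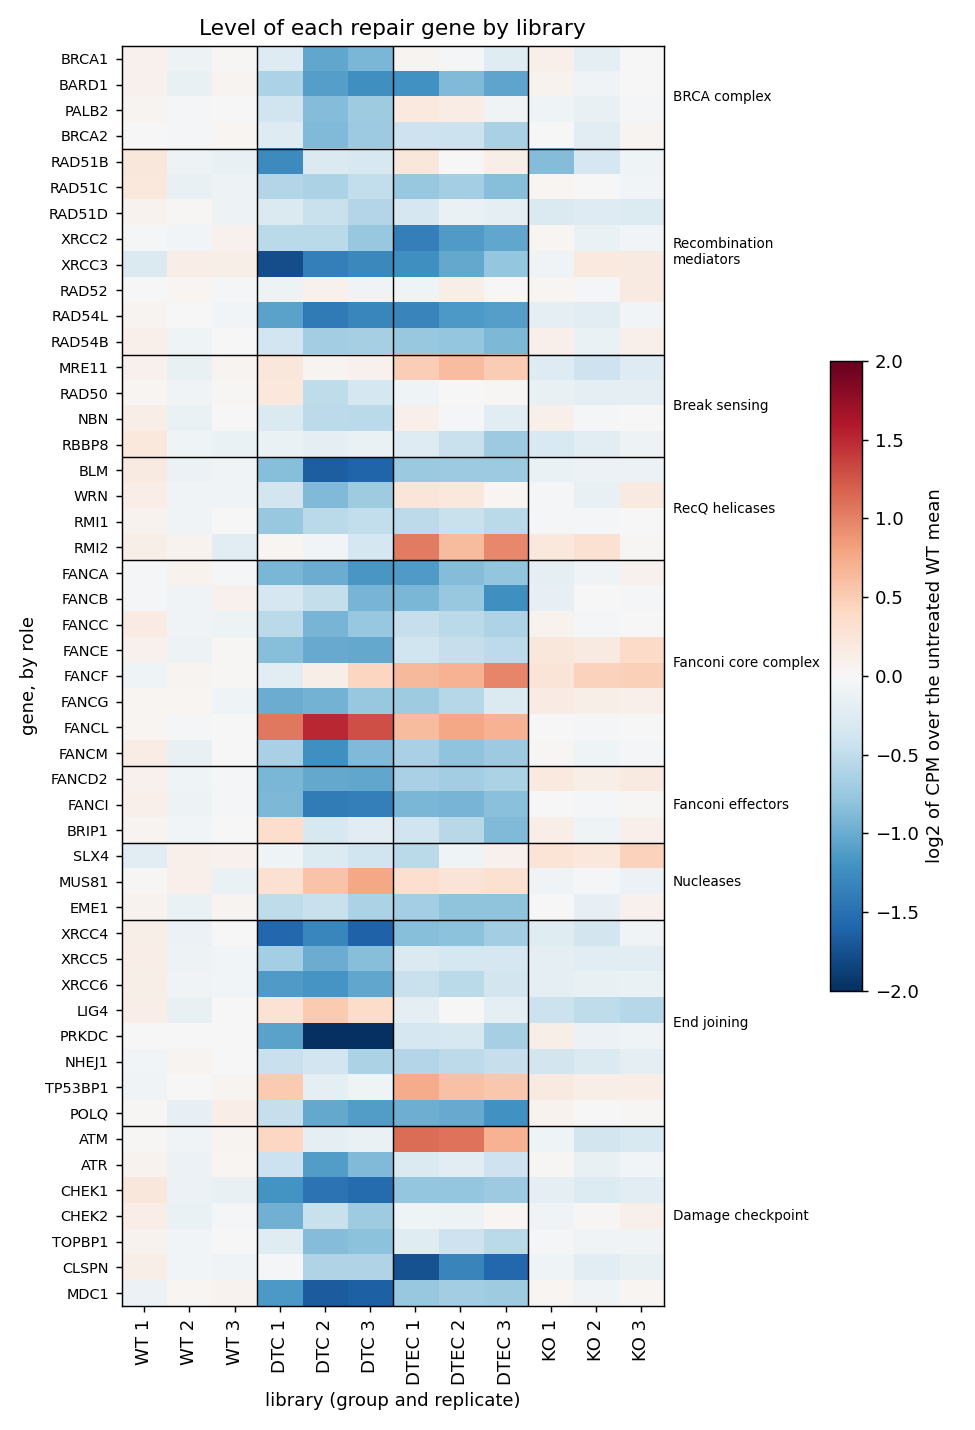
Level of each of the 49 repair genes (rows, by role) in each of the 12 libraries (columns), as log2 of the CPM relative to the untreated WT mean, with the colour capped at 2 in either direction. Most rows are below the untreated level in the 3 DTC libraries, FANCL, MUS81 and LIG4 are above it there, and the KO columns stay near the untreated level.

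The fold changes depend on the scaling. With library totals alone in place of TMM, the median of all genes moved up by 0.35 in DTC and by 0.17 in DTEC against untreated WT, and down by 0.19 in DTEC against DTC. The share of calls that were higher went from 50.5% to 68.4%, from 49.7% to 63.7% and from 51.9% to 37.4%, and with upper-quartile scaling it was 64.97%, 59.1% and 38.7%. Under totals alone the members' median in DTC was −0.25, and 8 members were higher and 22 lower in DTC, 8 and 24 in DTEC, and 14 and 12 in DTEC against DTC. The calls lost in DTC were those of BRCA1, BRCA2, RAD51C, RAD51D, RAD54B, XRCC2, NBN, WRN, FANCB, EME1, NHEJ1, TOPBP1 and CLSPN, and MRE11, FANCF, TP53BP1, ATM and RAD52 were then called higher. In DTEC the calls of BRCA2, RBBP8, FANCE, XRCC5 and TOPBP1 were lost, and WRN was called higher. In DTEC against DTC the members' median went from 0.22 to 0.03, the rises of RAD51B, XRCC3, MRE11, NBN, BLM, FANCG, FANCD2, FANCI, TP53BP1 and ATR were no longer called, and RAD51C, RAD54B, MUS81, EME1 and POLQ were called lower.

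Markers of proliferation moved in the same libraries. All 15 genes of an S phase list (MCM2 to MCM7, PCNA and others) fell in DTC (33.3% of all genes tested), with a median log2 fold change of −1.30. In DTEC 14 of them fell (26.3%), with a median of −0.86. All 12 genes of a mitosis list (MKI67, TOP2A, CDK1 and others) fell at both times, with medians of −2.01 and −0.95. From DTC to DTEC 11 of the 12 rose (28.8%) and CDK1 fell (−0.54). Of the S phase list 9 rose there, TYMS and RRM2 fell (26.6%) and 4 were not called, with a median of 0.37. In KO no gene of either list was called by edgeR (4.31% of all genes tested), DESeq2 or limma voom. Of the S phase list, 1 gene had an unadjusted p under 0.05 there (16.6% of all genes tested). The part of these 2 lists in the repair genes' changes was not tested. In bulk RNA fewer cycling cells and less of a transcript per cell cannot be told apart.

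**Figure D2:**
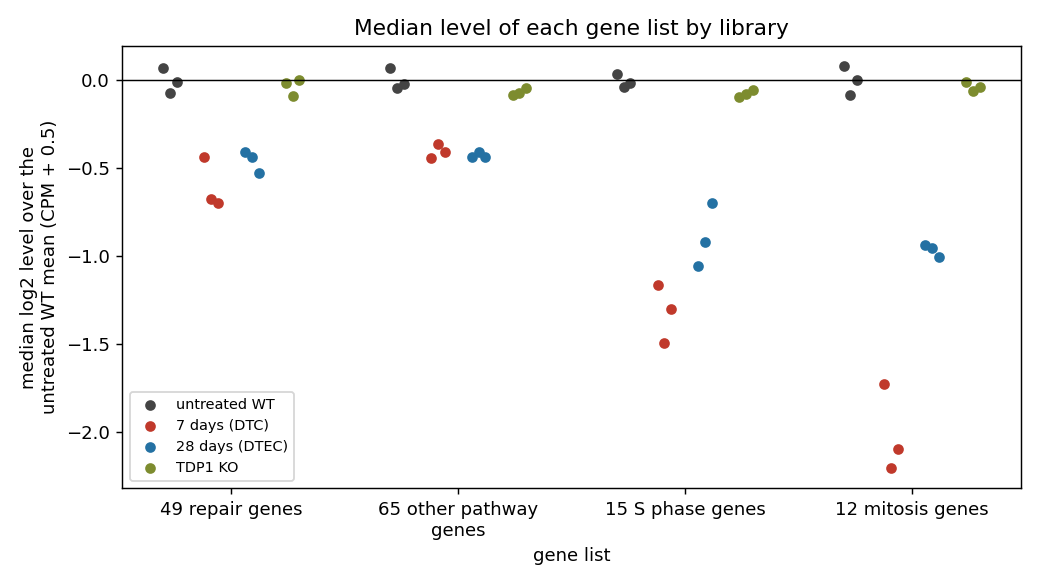
Median over the genes of each list of the log2 level relative to the untreated WT mean, 1 point per library, for the 49 repair genes, 65 other genes of the same pathways, the S phase list and the mitosis list. The repair genes lie between −0.70 and −0.43 in DTC and between −0.52 and −0.41 in DTEC, while the mitosis list goes from between −2.21 and −1.73 in DTC to between −1.002 and −0.93 in DTEC.

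DTC replicate 1 stood apart from the other two DTC libraries. It was the highest of the 3 for 33 of the 49 members (67.3%, against 41.8% of all genes tested), the lowest for 10 and between them for 6. Members for which it was highest had a median exon length of 7.77 kb, and those for which it was lowest 4.29 kb. Across the 49 members the log2 ratio of this library to the mean of the other two rose with log2 exon length (Pearson's r 0.54, Spearman's rho 0.60), a description over genes that share the same 3 libraries. Without it, 3 members were higher and 36 lower in DTC against WT, with RAD50 added, and 27 were higher and 7 lower in DTEC against DTC.

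The BRCA complex fell as a whole at 7 days and came back in part. All 4 members were lower in DTC (33.3% of all genes tested), by −0.60 to −0.97 on the log2 scale. BARD1, the RING partner of BRCA1 (chr2:214725646-214809711, as are all gene positions from GENCODE 29 on GRCh38), was at 54.6, 46.8 and 53.5 CPM without drug, 33.2, 24.2 and 22.1 in DTC and 22.3, 28.1 and 25.0 in DTEC. Both treated groups lay below every untreated library, with log2 fold changes of −0.97 (SE 0.14, adjusted p = 3.02e-05) and −1.04 (SE 0.14, adjusted p = 3.08e-05), and overlapped each other. BRCA2, the partner of PALB2, was also lower at both times, at 66.1% and 70.9% of the untreated mean. BRCA1 was at 80.5, 70.7 and 77.3 CPM without drug, 63.8, 36.9 and 40.6 in DTC and 78.8, 74.6 and 64.5 in DTEC. PALB2, the bridge between BRCA1 and BRCA2, was at 33.0, 30.8 and 31.5, then 24.2, 17.4 and 19.5, then 36.2, 35.1 and 30.4 CPM. For these 2 genes the DTC libraries lay below all others, and the 28-day level was 95.4% and 107% of the untreated mean, with no call against it (adjusted p = 0.755 and 0.537). From DTC to DTEC they rose by 0.63 (BRCA1, SE 0.17, adjusted p = 0.00645) and 0.73 (PALB2, SE 0.12, adjusted p = 0.000144) on the log2 scale.

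Among the recombination mediators, 6 of 8 members fell at 7 days (33.3% of all genes tested) and 5 at 28 days (26.3%). XRCC3, which acts in a complex with RAD51C (chr14:103697609-103715504), was at 68.1, 91.1 and 90.7 CPM without drug, 24.4, 32.4 and 34.2 in DTC and 35.6, 40.9 and 48.8 in DTEC. Its fold change in DTC was the largest of the group, −1.46 (SE 0.16, adjusted p = 1.67e-06), and in DTEC it was −0.99 (SE 0.16). The rise of XRCC3 from DTC to DTEC (0.46, adjusted p = 0.0227) was lost without DTC replicate 1, DTEC replicate 2 or DTEC replicate 3, and was 0.30 without the last. KLC1, on the opposite strand, covers 76.7% of the exon bases of XRCC3, and whether the counting used the strand is not given in the sources used here.

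RAD54L, a motor protein that works along DNA during recombination (chr1:46247688-46278473), was at 51.6, 49.8 and 47.8 CPM without drug, 23.7, 18.7 and 20.2 in DTC and 20.01, 22.5 and 23.2 in DTEC. It fell to 41.9% and 44.0% of the untreated mean, and the treated groups did not separate from each other (log2 difference 0.07, adjusted p = 0.607). XRCC2 (chr7:152644779-152676165) was at 36.5, 35.9 and 39.3 CPM without drug, 25.7, 25.5 and 22.1 in DTC and 14.4, 16.998 and 18.2 in DTEC. Each group lay below the one before it, with a log2 fold change of −0.61 (SE 0.11, adjusted p = 0.000188) at 7 days and a further −0.56 (SE 0.11, adjusted p = 0.000623) by 28 days. RAD51C and RAD54B were lower at both times, at 57.1% to 67.5% of the untreated mean, and RAD51D only passed the test at 7 days (−0.43). RAD52 was not called, at 10.9, 11.2 and 10.7 CPM without drug, 10.2, 11.6 and 10.4 in DTC and 10.4, 11.9 and 11.05 in DTEC, although with library totals alone it was called higher in DTC (0.33, adjusted p = 0.0164). RAD51B had the lowest level per exon length of all members (0.675 CPM per kb in untreated WT), and its rise from DTC to DTEC (0.66, adjusted p = 0.0337) was lost without DTC replicate 1 (0.40) or without any 1 of the DTEC libraries.

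Of the 4 break sensing and resection genes, NBN was called at 7 days, where 67.3% of all genes tested were called. NBN, which brings ATM to the break, was at 129.6, 107.8 and 117.4 CPM without drug, 97.1, 82.7 and 81.3 in DTC and 126, 115 and 101 in DTEC. It fell by 0.44 on the log2 scale in DTC (SE 0.11, adjusted p = 0.00293), and its rise to DTEC (0.39) was lost without DTC replicate 3 or DTEC replicate 1. MRE11, the nuclease of the complex (chr11:94415578-94493908), was at 56.2, 47.7 and 55.0 CPM without drug, 62.3, 55.0 and 56.1 in DTC and 74.4, 81.2 and 75.5 in DTEC. The 28-day libraries lay above all the others, at 145% of the untreated mean (log2 fold change 0.54, SE 0.10, adjusted p = 0.000344).

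RBBP8, the activator of MRE11, went the other way, with 75.3, 61.3 and 59.5 CPM without drug, 59.5, 57.6 and 59.6 in DTC and 54.6, 48.2 and 39.4 in DTEC. It was lower in DTEC than in untreated WT (−0.47, SE 0.12, adjusted p = 0.00621). Its difference between DTEC and DTC (−0.31, adjusted p = 0.045) was lost without DTC replicate 3, DTEC replicate 2 or DTEC replicate 3. RAD50 was at 112.6 CPM in DTC replicate 1 and at 68.5 and 76.9 in the other two, with 93.5 to 100.4 in untreated WT, and was called lower in DTC only without replicate 1. AC116366.3 on the same strand and TH2LCRR on the opposite strand share 79.7% of its exon bases.

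The RecQ helicases unwind recombination intermediates, and BLM does so with RMI1 and RMI2. BLM (chr15:90717327-90816165) was at 60.8, 49.4 and 51.2 CPM without drug, 29.7, 17.2 and 17.8 in DTC and 32.2, 32.5 and 32.5 in DTEC. It fell to 40.1% of the untreated mean in DTC (−1.32, SE 0.17, adjusted p = 8.36e-06) and stood at 60.3% in DTEC. The DTEC libraries lay above all 3 DTC libraries, with the call of that rise (0.59, adjusted p = 0.00846) lost without DTC replicate 2 or 3. WRN, the Werner syndrome helicase, was at 37.0, 32.1 and 31.96, then 25.99, 18.3 and 20.6, then 40.0, 38.8 and 34.7 CPM. It fell in DTC (−0.64, SE 0.13, adjusted p = 0.000723), rose from there to DTEC (0.81, SE 0.13, adjusted p = 0.000164) and was not called against untreated WT at 28 days (adjusted p = 0.304).

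RMI2 and RMI1, which act in the same complex, did not follow the same course. RMI2 (chr16:11249619-11381662) was at 7.68, 7.45 and 6.06 CPM without drug, 7.27, 6.77 and 5.54 in DTC and 14.4, 10.96 and 13.7 in DTEC. Untreated and 7-day libraries overlapped, and all 28-day libraries were above them, at 185% of the untreated mean (log2 fold change 0.89, SE 0.15, adjusted p = 0.000229). RMI1 was at 66.3% of the untreated mean in DTC and 70.7% in DTEC, and was called lower at both times.

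In the Fanconi core complex, 6 of 8 members fell and 1 rose at 7 days (33.3% and 34% of all genes tested). At 28 days 6 fell and 2 rose (26.3% and 26%). FANCL, the ubiquitin ligase of the complex (chr2:58159243-58241372), was at 13.8, 13.1 and 13.4 CPM without drug, 27.8, 38.1 and 33.0 in DTC and 20.8, 23.1 and 21.9 in DTEC. The 3 groups did not overlap. FANCL rose to 245% of the untreated mean in DTC (log2 fold change 1.29, SE 0.11, adjusted p = 1.96e-07), the only member to rise at least 2-fold there, and then fell to 163% in DTEC (−0.59 against DTC, SE 0.11, adjusted p = 0.000502). Its promoter, shown above, holds the same TTCCCGC letters as those of BLM and RAD54L, which fell.

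FANCA, FANCC, FANCE, FANCG and FANCM, structural members of the complex or its DNA translocase (FANCM), were lower at both times, at 49.2% to 60.1% of the untreated mean in DTC and 52.8% to 72.8% in DTEC. FANCE and FANCG were higher in DTEC than in DTC, and the call for FANCG (0.39) was lost without DTC replicate 2 and without DTEC replicate 3 (0.22). FANCB (chrX:14835961-14873069) was at 18.6, 17.98 and 20.04 CPM without drug, 14.9, 13.6 and 9.94 in DTC and 9.99, 11.2 and 8.05 in DTEC. It was lower at both times, with a fold change at 7 days of −0.56, or −0.36 without DTC replicate 3. The further drop from DTC to DTEC (−0.40, adjusted p = 0.0371) was lost without DTC replicate 1 or 2 or DTEC replicate 1 or 3, and these 2 groups overlapped. FANCF (chr11:22622890-22625841) was at 4.45, 4.89 and 4.79 CPM without drug, 4.06, 5.12 and 6.36 in DTC and 7.37, 7.64 and 9.29 in DTEC. All 28-day libraries of FANCF stood above the untreated ones (0.78, SE 0.17, adjusted p = 0.00134), while the 7-day libraries overlapped them.

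FANCD2 and FANCI, the pair that the core complex ubiquitinates, fell together. FANCI (chr15:89243949-89317261) was at 218, 190 and 201 CPM without drug, 109, 76.6 and 78.8 in DTC and 107, 107 and 113 in DTEC. FANCD2 was at 95.3, 84.6 and 88.2, then 47.2, 44.0 and 43.6, then 56.8, 55.5 and 57.7 CPM. In DTC they stood at 43.4% (FANCI, −1.20, SE 0.12, adjusted p = 8.42e-07) and 50.3% (FANCD2, −0.99, SE 0.09, adjusted p = 1.54e-07) of the untreated mean, and in DTEC at 53.8% and 63.4%. The DTEC libraries of FANCD2 lay above all its DTC libraries, while those of FANCI overlapped DTC replicate 1. The rise of FANCD2 was not called with totals alone, with upper-quartile scaling or with only these 2 groups in the fit (adjusted p = 0.0652 to 0.144). The rise of FANCI from DTC to DTEC (0.31, adjusted p = 0.0431) was lost in 11 of the 12 fits that left out 1 library, and was 0.47 without DTC replicate 1 and 0.18 without DTC replicate 2.

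BRIP1, a helicase that binds BRCA1, changed late. It was at 35.5, 32.6 and 34.0 CPM without drug, 43.6, 27.2 and 29.2 in DTC and 25.7, 23.1 and 18.5 in DTEC. Untreated and 7-day libraries overlapped (−0.03, adjusted p = 0.882), and the 28-day libraries lay below both (−0.60, SE 0.17, adjusted p = 0.00701). Against DTC the change was −0.57, or −0.35 without DTC replicate 1.

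The nucleases that cut branched DNA split. MUS81 (chr11:65857126-65867653) was at 22.5, 23.8 and 20.2 CPM without drug, 27.3, 33.1 and 38.0 in DTC and 28.0, 26.4 and 27.3 in DTEC. It rose to 148% of the untreated mean in DTC (0.57, SE 0.12, adjusted p = 0.000661) and was at 123% in DTEC (0.30, adjusted p = 0.0464), a call lost in 8 of the 12 fits that left out 1 library, those without WT replicate 1 or 3 or any DTEC or KO library. EME1, the partner of MUS81 in its nuclease, was at 20.2, 17.6 and 20.1, then 13.6, 14.2 and 12.5, then 12.1, 11.04 and 11.02 CPM. EME1 fell in DTC (−0.53, SE 0.11, adjusted p = 0.000623) and in DTEC (−0.76, SE 0.11, adjusted p = 4.73e-05). The scaffold SLX4, which holds these nucleases, ranged from 11.5 to 14.3 CPM in untreated WT and from 9.14 to 14.1 in the treated groups and was not called. Among the 65 other pathway genes, EME2, the alternative partner of MUS81, rose in DTC (1.46) and was lower in DTEC than in DTC (−1.56).

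**Figure D3:**
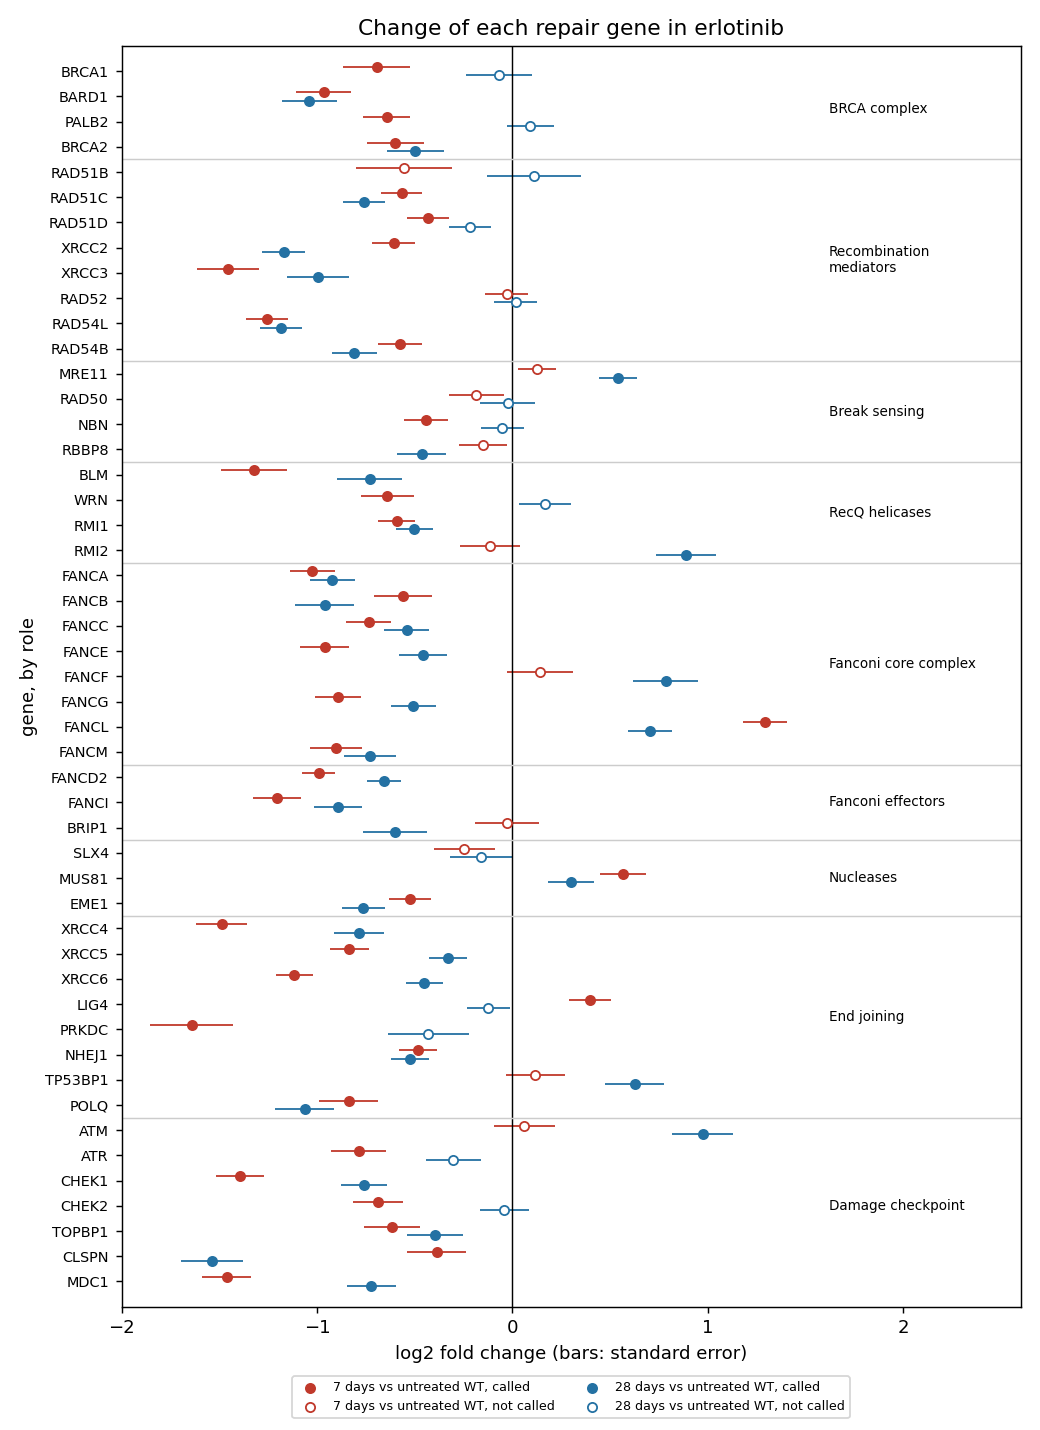
Log2 fold change with its standard error for each of the 49 genes, by role, in DTC against untreated WT and in DTEC against untreated WT, with filled points for calls at an adjusted p under 0.05. FANCL (1.29 in DTC) lies farthest to the right, PRKDC (−1.64 in DTC) and CLSPN (−1.54 in DTEC) farthest to the left.

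The end joining genes held both the most abundant members and the largest fall. Per exon length, XRCC6 (Ku70) had 386 CPM per kb in untreated WT and XRCC5 (Ku80) 122, followed by PRKDC at 35.3, and no other member exceeded FANCI at 26.1. PRKDC encodes the catalytic subunit of DNA-PK, which the Ku pair recruits. Its level was 547.6, 540.3 and 543.0 CPM without drug, 257.8, 132.6 and 132.3 in DTC and 429.5, 435.9 and 344.9 in DTEC. All DTC libraries were below all others, at 32.1% of the untreated mean (−1.64, SE 0.21, adjusted p = 1.33e-05, or −2.001 without DTC replicate 1). PRKDC rose from DTC to DTEC by 1.21 (SE 0.21, adjusted p = 0.000299). At 28 days every library was still below the untreated ones, without a call (−0.43, adjusted p = 0.0997). Without DTC replicate 1 that difference was called (−0.41, adjusted p = 0.000834).

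XRCC6 (chr22:41621119-41664048) was at 1379, 1210.0 and 1219 CPM without drug, 579.7, 557.9 and 617.7 in DTC and 928.4, 871.5 and 985.2 in DTEC. XRCC5 was at 730.7, 622.3 and 643.4, then 413.8, 335.0 and 370.7, then 541.7, 522.4 and 524.4 CPM. Both Ku genes therefore had 3 separate levels, with DTC at 46.1% (XRCC6) and 56.1% (XRCC5) of the untreated mean and DTEC at 73.1% and 79.6%. The call of XRCC5 at 28 days (−0.33, adjusted p = 0.0125) was lost without WT replicate 1 or DTEC replicate 2. XRCC4, the scaffold of ligase IV (chr5:83077498-83353787), was at 15.4, 13.1 and 14.1 CPM without drug, 4.80, 5.77 and 4.63 in DTC and 7.89, 8.06 and 8.82 in DTEC. It fell by 1.49 on the log2 scale in DTC (SE 0.13, adjusted p = 1.87e-07) and stood at 58.1% of the untreated mean in DTEC.

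LIG4, the ligase that XRCC4 stabilises (chr13:108207439-108218368), rose where its partner fell. It was at 22.8, 18.6 and 20.7 CPM without drug, 25.3, 29.7 and 26.7 in DTC and 18.2, 20.7 and 18.1 in DTEC. The DTC libraries lay above all others (0.40 against untreated WT, SE 0.11, adjusted p = 0.00476), and DTEC was lower than DTC (−0.52, SE 0.11, adjusted p = 0.00102). NHEJ1 (XLF), which bridges the ends with XRCC4, was at 71.5% and 69.5% of the untreated mean and was called lower at both times.

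TP53BP1 and POLQ act on the choice between pathways. TP53BP1, which shields ends from resection (chr15:43403061-43510728), was at 70.0, 73.1 and 76.3 CPM without drug, 105, 64.0 and 68.7 in DTC and 123, 109 and 106 in DTEC. It was not called at 7 days and stood at 154% of the untreated mean at 28 days (0.63, SE 0.15, adjusted p = 0.00292). Its rise from DTC to DTEC (0.51) was lost without DTC replicate 2 (0.33), DTC replicate 3 or DTEC replicate 1. POLQ, the polymerase of microhomology-mediated joining (chr3:121431427-121546641), was at 30.8, 27.1 and 33.3 CPM without drug, 22.1, 14.95 and 14.1 in DTC and 15.5, 15.1 and 13.1 in DTEC. It was lower at both times, at 56.0% and 47.9% of the untreated mean (−0.84, SE 0.15, and −1.06, SE 0.15).

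The checkpoint kinases and their adaptors were lower at 7 days, apart from ATM, and parted at 28 days. CHEK1, the kinase that halts the cycle when forks stall (chr11:125625136-125676255), was at 66.2, 52.0 and 50.7 CPM without drug, 24.6, 20.3 and 19.4 in DTC and 32.9, 32.9 and 34.0 in DTEC. Its 3 groups did not overlap, with 38.1% of the untreated mean in DTC (−1.39, SE 0.12, adjusted p = 1.59e-07) and 59.1% in DTEC. MDC1, which binds phosphorylated H2AX beside a break (chr6:30699807-30717889), was at 102, 115 and 116, then 50.1, 35.2 and 35.7, then 65.3, 68.5 and 68.2 CPM. It showed the same order of groups (−1.46 in DTC, SE 0.13, adjusted p = 1.59e-07, and −0.72 in DTEC, SE 0.12).

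CLSPN (claspin), which lets ATR activate CHEK1, had its main change late (chr1:35720218-35769967). It was at 42.2, 37.3 and 37.0 CPM without drug, 38.2, 25.5 and 25.5 in DTC and 11.6, 15.5 and 13.0 in DTEC. The 28-day libraries lay below all others, at 34.5% of the untreated mean (−1.54, SE 0.16, adjusted p = 2.22e-06) and below DTC by −1.15 (SE 0.16, adjusted p = 2.75e-05). At 7 days DTC replicate 1 lay within the untreated range, and the call (−0.39, adjusted p = 0.0352) was lost in 10 of the 12 fits that left out 1 library, all but those without DTC replicate 1 or DTEC replicate 1. The change there was −0.23 without DTC replicate 2, −0.24 without DTC replicate 3 and −0.57 without DTC replicate 1.

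ATM, the kinase of the break response (chr11:108222484-108369102), went up while CLSPN went down. It was at 41.9, 39.5 and 42.8 CPM without drug, 55.4, 36.6 and 37.7 in DTC and 89.5, 87.7 and 66.8 in DTEC. Untreated and 7-day libraries overlapped, and ATM stood at 196% of the untreated mean at 28 days (0.97, SE 0.16, adjusted p = 0.000136), the largest rise of any member there. ATR, the kinase of the stalled-fork response, was at 58.0% in DTC (−0.79, adjusted p = 0.00021) and 81.1% in DTEC, where it was not called (adjusted p = 0.086). Its rise from DTC to DTEC (0.48) was lost without DTC replicate 2 (0.30), DTC replicate 3 or DTEC replicate 2. CHEK2, the target of ATM, was at 62.0% in DTC and 97.2% in DTEC, and TOPBP1, the activator of ATR, at 65.4% and 76.0%. The call of TOPBP1 at 28 days (−0.40, adjusted p = 0.0315) was lost without any 1 of the WT libraries, DTEC replicate 2 or 3, or KO replicate 2.

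**Figure D4:**
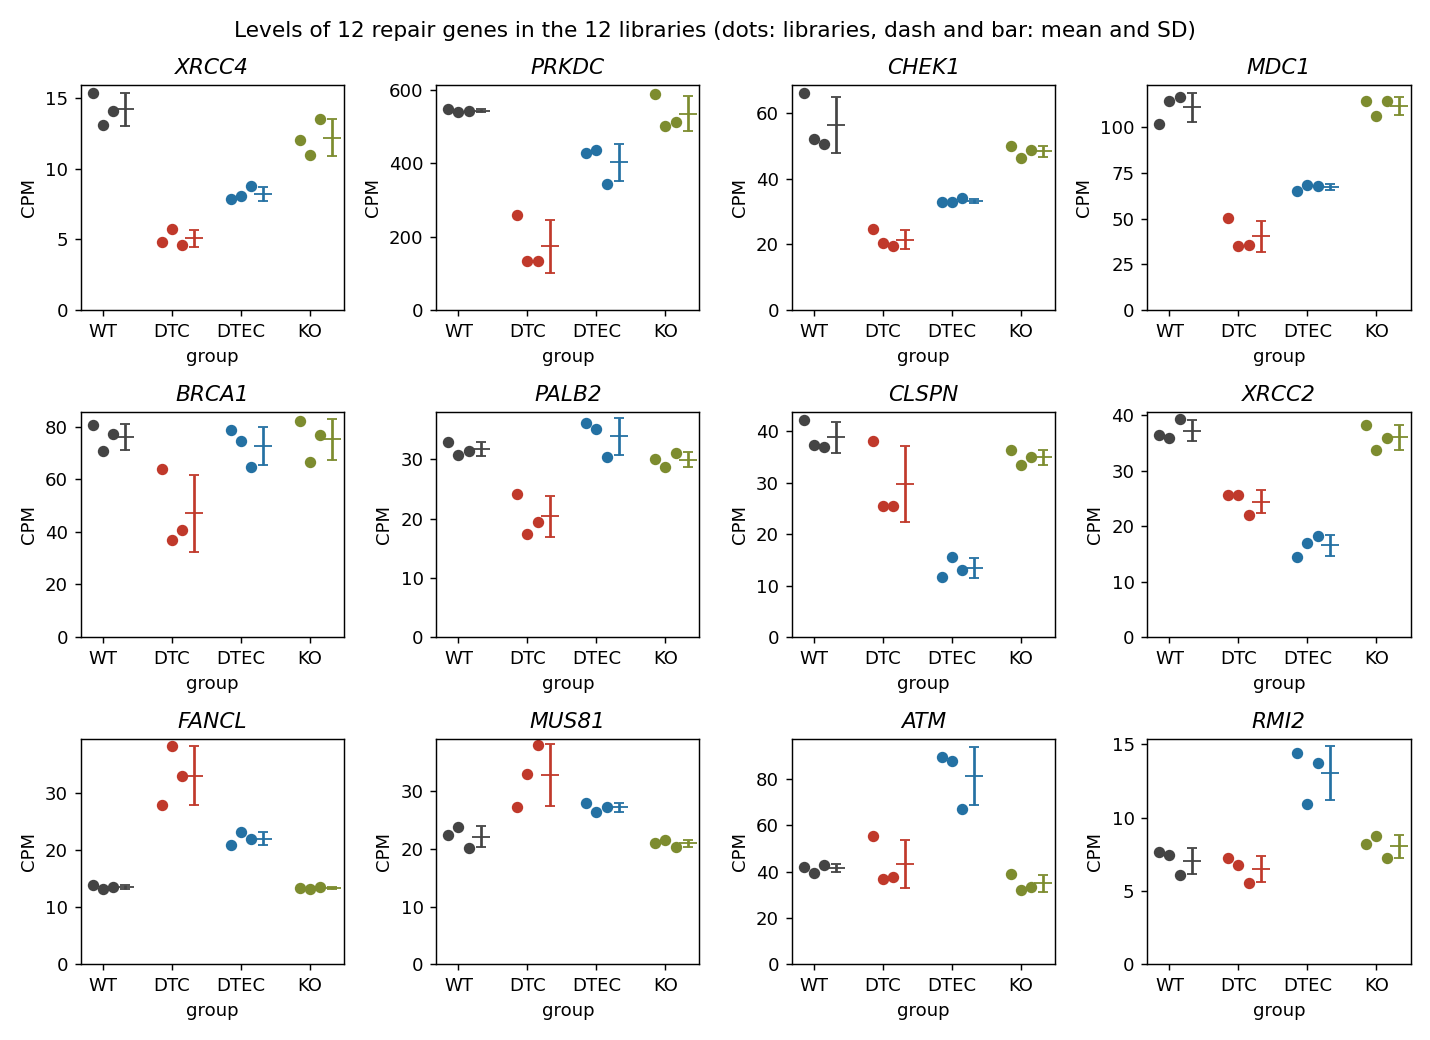
CPM in each library (points) with the group mean and standard deviation (bars), by group, for members whose courses differ. PRKDC and CHEK1 are lowest in DTC, CLSPN is lowest in DTEC, ATM and RMI2 are highest in DTEC, and FANCL and MUS81 are highest in DTC.

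Of the 65 other genes of these pathways, more were called lower than higher in both treated groups. In DTC 34 fell (33.3% of all genes tested) and 7 rose (34%), with a median log2 fold change of −0.40. In DTEC 35 fell (26.3%) and 8 rose (26%), with a median of −0.42. From DTC to DTEC 15 rose (28.8%) and 17 fell (26.6%), with a median of 0.01. In that last comparison 49.2% of them were called, against 55.4% of all genes tested. With library totals alone, 20 rose and 20 fell in DTC, and 12 rose and 30 fell in DTEC. The most lowered in DTC were LIG3 (−1.54), a DNA ligase of alternative end joining, and TONSL (−1.45) and MMS22L (−1.43), partners that act together at damaged forks. The most raised were EME2, ZSWIM7 (1.33), a subunit of the Shu complex, and SWI5 (0.77), a recombination cofactor. In DTEC the most lowered were TONSL (−1.80), the histone variant H2AX (−1.52) and the fork protector TIPIN (−1.38), and the most raised were the nuclease FAN1 (0.75), ZSWIM7 (0.68) and the polymerase POLL (0.52). From DTC to DTEC the largest rises were those of BRCC3 (1.4), a deubiquitinase that acts with BRCA1, LIG3 (0.99) and the resection inhibitor RIF1 (0.94), and the largest drops, after EME2, those of CENPX (−0.97) and FAAP20 (−0.82).

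In the untreated TDP1 knockout line, 1 of the 49 members was called, and it was lower (4.31% of all genes were called, 1.55% lower and 2.76% higher). The members' median log2 fold change was −0.02, against −0.01 for all genes tested. LIG4 was at 22.8, 18.6 and 20.7 CPM in untreated WT and 15.3, 14.6 and 13.9 in KO. Every KO library was below every untreated one, at 70.6% of the untreated mean (−0.50, SE 0.11, adjusted p = 0.0182). The call was lost without WT replicate 1 or 3 or any 1 of the KO libraries (adjusted p = 0.0579 to 0.114). LIG4 was also the only member called by DESeq2 and by limma voom, which called none higher.

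No other member passed the test in KO. By unadjusted p under 0.05, 5 members were lower and 2 higher, 14.3% of the members against 16.6% of all genes tested. The 3 KO libraries lay entirely on one side of the untreated ones for 16 of the 49 members, against 35.7% of all genes tested, a share near that background. Besides LIG4 these were 15 members that were not called, among them MRE11 (44.2, 39.9 and 44.2 CPM against 56.2, 47.7 and 55.0, −0.31, adjusted p = 0.103), NHEJ1 (−0.29, adjusted p = 0.133) and FANCF (0.40, adjusted p = 0.238). None of the 65 other pathway genes was called, while 8 had an unadjusted p under 0.05, all lower, and DESeq2 and limma voom called none. When the 6 untreated libraries were fitted alone, 3 of the 49 members were called higher and 4 lower. Calls over all genes rose too, to 2656 of 15183 genes tested in place of 738 of 17115. That fit adds calls for MRE11, FANCF, FANCD2, SLX4, XRCC5 and NHEJ1.

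**Figure D5:**
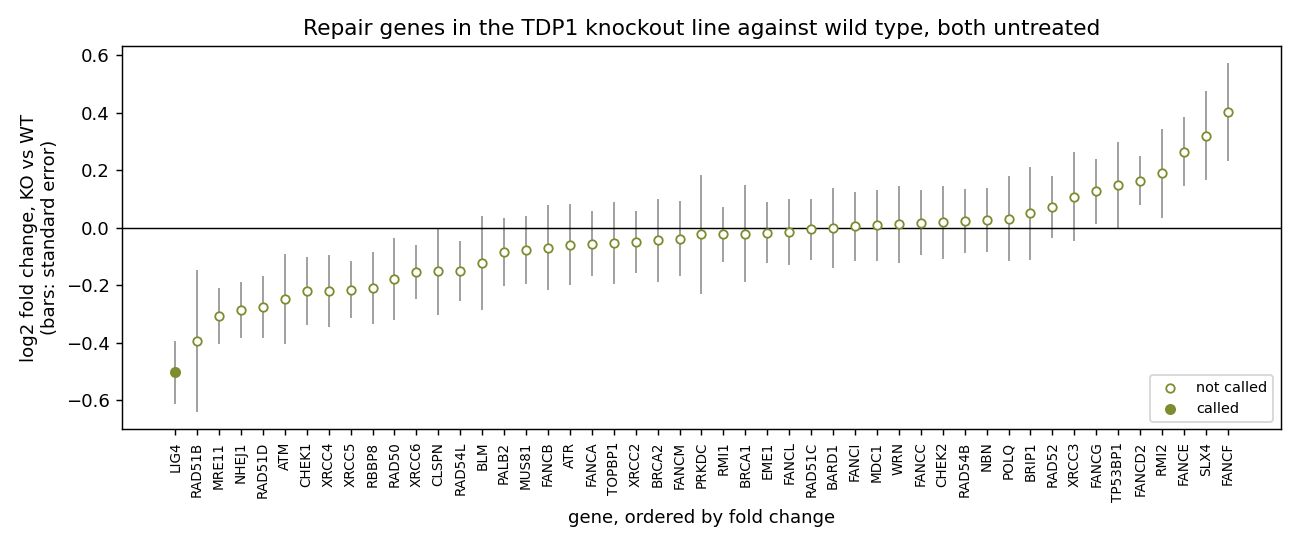
Log2 fold change of each of the 49 genes in the untreated TDP1 knockout line against untreated WT, ordered by size, with bars for the standard error. LIG4 at −0.50 is the only filled (called) point, and the others lie between −0.39 and 0.40.

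For 9 members none of the 12 deposited values was a whole number (RAD51C, XRCC2, RAD50, FANCL, FANCM, BRIP1, PRKDC, NHEJ1 and TOPBP1), so some of their reads were shared out between features and their levels are less certain. Exons of other genes cover 65.4% of the exon bases of NHEJ1 and 59.1% of those of RAD54B (FSBP, same strand). Genes on the opposite strand cover 28.7% of TP53BP1 (TUBGCP4), 25.1% of RAD54L (LRRC41), 23.6% of FANCA (ZNF276) and 19.7% of FANCL (VRK2 among them).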

How the data were processed

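Polyadenylated RNA of 12 libraries was sequenced as 101 bp pairs after TruSeq Stranded mRNA preparation, per the labels' protocols. The authors deposited an expected count per gene and library, not scaled to depth, and the submitters' processing notes name RSEM 1.3.1, Bowtie2 2.5.2, DESeq2 1.40.2 and GRCh38 without roles. The annotation release and strand setting are not given in the sources used here. Expected counts were rounded and fitted in R 4.3.3 with edgeR 4.0.16 (filterByExpr, TMM, robust quasi-likelihood F tests, all 12 libraries), with Benjamini-Hochberg adjustment over 17115 genes and calls at 0.05. Gene symbols were matched by Ensembl ID. SD is over the 3 libraries of a group. SE is the absolute log2 fold change divided by the square root of its F statistic. That statistic comes from the edgeR fit of all 12 libraries, in which the 4 groups share the estimate of spread. No library pair within a group agreed within sampling noise. Alternatives were other scalings, DESeq2 1.42.0, limma 3.58.1 voom, low-count filters (none, or a mean of at least 50 counts), the compared groups alone, a replicate block and leaving out each library.

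Every member may be named. Values per library are given for the 5 largest called changes of each comparison, the largest called change of each role at 7 days and members moving against their role. Of the other pathway genes, the 3 largest called in each direction are named. Values of BRCA1, PALB2, FANCD2, XRCC5, XRCC6, RAD50 and RAD52 were added after they were seen. Those of MRE11 and EME1 are also given outside these rules. The values of 1 other pathway gene are not reported here. Members, lists and motifs were chosen with earlier results of these data known.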

Additional observations from a re-analysis of the deposited data

Results flagged for a closer look

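For 5 repair genes the change against untreated WT had opposite signs at 7 and 28 days of erlotinib, and the test of DTEC against DTC called the difference between those changes. The 2 changes share the untreated libraries, and their difference is the DTEC against DTC contrast itself. PALB2 differed by 0.73 on the log2 scale, from −0.64 at 7 days to 0.09 at 28 days. WRN differed by 0.81, from −0.64 to 0.17. RMI2 differed by 1.00, from −0.11 to 0.89, so that its 28-day change alone was called, and its 7-day change was above 0 with totals alone (0.24), with upper-quartile scaling (0.17), with a mean of at least 50 counts (0.07) and without DTC replicate 3 (0.03), with no call in any of these. RAD51B differed by 0.66, from −0.55 to 0.11, with neither change called and the difference lost without DTC replicate 1. LIG4 differed by −0.52, from 0.40 to −0.12, or to 0.05 with totals alone, where it was not called. For PALB2, WRN and LIG4 the change was called at 7 days and not at 28 days.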

How the results depend on the processing

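Of the calls among the 49 members, those made in every alternative run were 3 of 3 higher and 22 of 35 lower in DTC, 6 of 7 and 24 of 29 in DTEC, 14 of 24 and 5 of 7 in DTEC against DTC, and 0 of 1 lower in KO. With library totals alone, members called in DTC were 8 higher and 22 lower, other pathway genes 20 and 20, members in DTEC against DTC 14 and 12, and other pathway genes higher there 8. RAD52 turned to 0.325 in DTC. With upper-quartile scaling the members higher in DTC were 6 and the other pathway genes higher 19, and in DTEC against DTC 12 members were lower and 8 other pathway genes higher. With a mean of at least 50 counts, 15 other pathway genes were higher in DTC and 11 members lower in DTEC against DTC. With the compared groups alone, DTEC against DTC gave 15 members higher, 8 higher and 11 lower other pathway genes, and 7856 of 16539 genes in all. In KO the same choice gave 3 members higher and 4 lower, 1 other pathway gene higher and 5 lower, and 2656 of 15183 genes in all. KO calls over all genes were 1149 by DESeq2 and 1147 without a low-count filter. Leaving out 1 library at a time gave 7 to 11 other pathway genes higher in DTC, the 11 without DTC replicate 1. It gave 5 to 10 higher in DTEC, 5 without WT replicate 3. In DTEC against DTC it gave 9 to 17 higher, 9 without DTC replicate 3, and 11 to 21 lower, 11 without DTC replicate 2 or DTEC replicate 1. In KO it gave 0 to 2 members lower (MRE11 added without DTC replicate 1) and 321 to 1520 genes called, with 1520 again without DTC replicate 1 and 321 to 426 without any 1 of the WT or KO libraries. The causes were not tested.

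Whether libraries with the same replicate number were paired was not settled here. Correlations of same-numbered libraries' deviations were 0.06 to 0.18 (DTC and WT), 0.0017 to 0.098 (DTEC and WT), −0.013 to 0.14 (DTEC and DTC) and 0.038 to 0.063 (KO and WT). Those of differently numbered libraries were −0.184 to 0.107, −0.093 to 0.084, −0.187 to 0.118 and −0.048 to −0.0019. With a replicate block the members called were 3 higher and 36 lower in DTC (RAD51B added), 7 and 30 in DTEC (PRKDC added), 24 and 7 in DTEC against DTC and 0 and 1 in KO. The block gave 11775, 9255, 9732 and 887 genes called in all, against 11520, 8955, 9480 and 738 without it.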
